A study of Mus musculus with 21 samples.

Results

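Granzyme A-high cells were taken from 1 culture of mouse CD8 T cells, kept for 10 days with a low dose of interleukin-2 (IL-2). They were chosen by their Gzma count, as the cells of that library with at least 5 UMIs (unique molecular identifiers, each marking 1 captured RNA molecule) of Gzma, the gene of granzyme A. By this rule 983 of the 6382 kept cells of the library were Gzma-high, of 106456 kept cells in the whole series. They were set against 983 cells of the same library with 0 Gzma UMIs, each paired with a Gzma-high cell of like total UMIs. Because Gzma chose the cells, its own level is a description, Gzma was left out of every comparison of Gzma-high with Gzma-0 cells, and differences within this library carry no test.

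All libraries came from OT1 mice, whose CD8 T cells share 1 transgenic receptor against ovalbumin. Naive cells were stimulated with anti-CD3 and anti-CD28 beads and, in most libraries, given IL-15, IL-2 or IL-2v (labelled as a mutant IL-2) at 5 or 50 IU/mL. The library described here had 5 IU/mL IL-2 on day 10. The other libraries compared were 50 IU/mL IL-2 and 50 IU/mL IL-2v on day 10, 5 and 50 IU/mL IL-2 on day 5, and stimulated cells without cytokine on day 3. Each group was 1 library, with no replicate culture, and the number of mice behind a library is not given in the sources used here.

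Granzyme A is a serine protease that cytotoxic T cells and natural killer (NK) cells store in granules with perforin and release onto target cells. CD8 T cells that become effectors gain granzymes, perforin and receptors for inflamed tissue. Naive and stem-like cells express the transcription factor TCF1 (Tcf7) and the lymph node homing receptor CCR7 instead.

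The 21 libraries held 3250 to 7105 kept cells and 10589950 to 32648496 UMIs each, with a median of 3016 to 5065 UMIs per cell. Of the 6382 barcodes of the low-dose IL-2 library, 4 to 15 also occurred in any 1 other library. The labelled cell type was checked against its markers. All 983 Gzma-high cells had a UMI of Cd3d, Cd3e or Cd3g, which encode parts of the T cell receptor complex. A UMI of Cd8a or Cd8b1, the CD8 coreceptor genes, was found in 782 of them and in 863 of the 983 Gzma-0 cells. Cd4, Foxp3, Ms4a1 and Lyz2, which define CD4 T, regulatory T, B and myeloid cells, had 0 UMIs in both groups. In CPM, UMI counts scaled to a common total per group, the sums of the other-lineage marker lists were 10.4 in Gzma-high and 6.48 in Gzma-0 cells for CD4 T cells, 4.28 and 12.4 for B cells, 10.6 and 4.77 for myeloid cells and 12.7 and 3.58 for mast cells. They were 0.514 and 0.341 for erythroid cells and 397 and 294 for gamma delta and innate-like T cells.

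Gzma RNA was concentrated in few cells. The Gzma-high cells held 95.3% of the library's Gzma UMIs, with a median of 16 Gzma UMIs per cell, quartiles of 8 and 37 and a maximum of 384. The 429 cells with at least 20 UMIs held 78.8% of the library's Gzma UMIs, and 56 cells with at least 100 held 28.6%. A further 839 cells had 1 to 4 Gzma UMIs and 4560 had 0. At the edge of the rule, 100 cells had exactly 4 Gzma UMIs and 89 had exactly 5. Whether single Gzma UMIs came from the cell or from free RNA was not tested.

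Gzma-high cells were most frequent on day 10 with IL-2, among the 21 libraries. They were 15.4% of cells at 5 IU/mL IL-2 (Clopper-Pearson 95% interval 14.5% to 16.3%), 63.2% at 50 IU/mL IL-2 and 11.6% at 50 IU/mL IL-2v on day 10. With cells thinned to 2000 UMIs, these shares were 10.2%, 50.8% and 5.38%. On day 5, 50 IU/mL IL-2 gave 3.08%, and each of the other 17 libraries was at or under 1.46%. With IL-15 on day 10, 10 cells passed the rule at each dose, 0.183% at 5 IU/mL and 0.153% at 50 IU/mL. Intervals here and below cover counting error only, not differences between cultures.

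**Figure D1:**
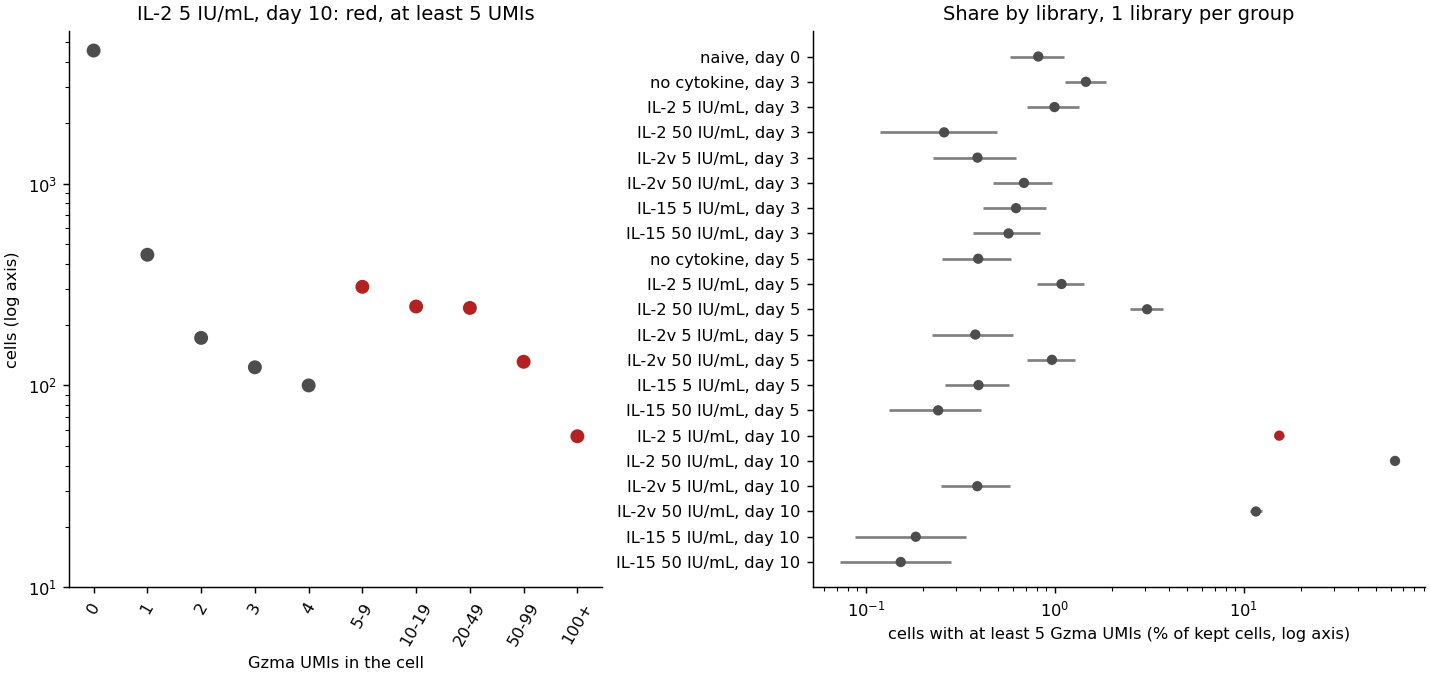
Left, number of cells (log axis) by Gzma UMIs per cell in the library with 5 IU/mL IL-2 on day 10, with the Gzma-high classes in red. Right, percent of kept cells with at least 5 Gzma UMIs (log axis) in each of the 21 libraries, with exact Clopper-Pearson 95% intervals. The red point, at 15.4%, lies between 50 IU/mL IL-2 (63.2%) and 50 IU/mL IL-2v (11.6%) on day 10.

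Gzma-high cells had more UMIs than unpaired Gzma-0 cells, with medians of 5472 and 3814. Pairing brought the Gzma-0 cells to a median of 5470 UMIs. The paired groups had 1877 and 1926 genes per cell, 3.33% and 3.66% mitochondrial UMIs, and 28.5% and 29.8% ribosomal protein UMIs, as medians. Levels are given as CPM of the group's summed UMIs outside Gzma, 5840099 in Gzma-high and 5867300 in Gzma-0 cells, and differences as log2(CPM + 1).

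Of 5680 genes with at least 20 CPM in either group, 150 were at least 1.5-fold higher in Gzma-high cells (2.64%) and 238 were at least 1.5-fold lower (4.19%). A gene could reach 20 CPM through 1 group alone, which set its direction, so the counts for gene lists below are descriptions. At 2-fold, 55 were higher (0.968%) and 38 lower (0.669%). The balance of the calls depended on the scaling: with trimmed means of M values (TMM), 192 were higher and 144 lower, so that higher genes made up 57.1% of the calls in place of 38.7%. The median gene differed by -0.06. Without cells that held markers of other lineages, 146 genes were higher and 217 lower.

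The 12 genes with the highest difference, at a level of 50 CPM or more in the group that was higher, were Gzmd, Gm36723, Spp1, Fcer1g, Klrb1c, Itga1, Gzmc, Gpr141, Mt2, Rgs1, Ltb4r1 and Egr1. The 12 with the lowest difference included Actn1, Tcf7, Cmah, Ccr7, Gm26740, Klf2, Ighm, Arl5c, Iigp1, Il7r and Osm. All 24 kept their sign under every other filter, pairing and scaling tried, except that 22 of 24 kept it under each of the 2 settings chosen after the data were seen. They were picked as the most extreme genes of the same cells, and some settings left the values unchanged, so the kept signs are a description.

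**Figure D2:**
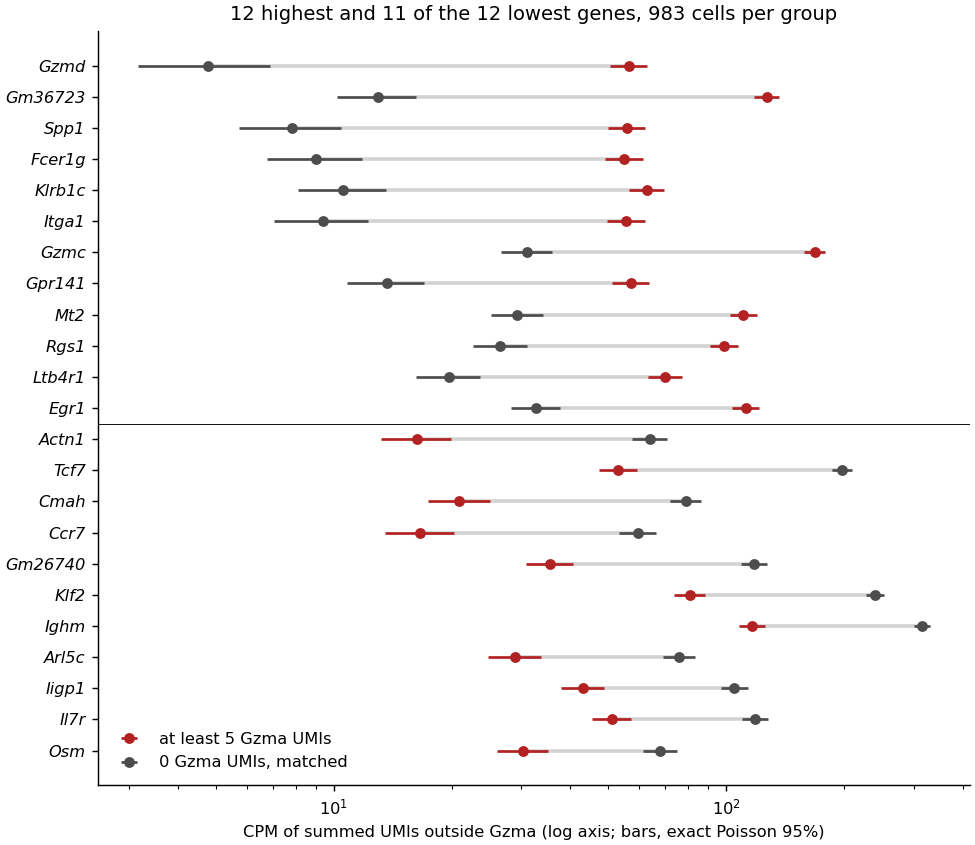
CPM of summed UMIs outside Gzma (log axis) for the 12 highest genes and 11 of the 12 lowest in 983 Gzma-high cells (red) and 983 paired Gzma-0 cells (grey), with exact Poisson 95% intervals. Gzmd stood at 56.5 against 4.77 CPM and Tcf7 at 53.1 against 198 CPM.

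Other granzyme genes had more UMIs in Gzma-high cells, most of them in few cells. Of the 9 granzymes listed apart from Gzma, 6 reached 20 CPM, and 4 of these (Gzmd, Gzme, Gzmg and Gzmk) did so through the Gzma-high cells alone, so that filter set their direction. Gzmb and Gzmc reached it in both groups and were also called higher. The list median was 3.33 over the 8 granzymes with at least 1 CPM (-0.08 over the 11103 genes of all kinds at that level). It was 0.56 without the Gzma-high cells that had a UMI of any of Gzmc to Gzmg, a setting chosen after the data were seen. That setting put Gzmc to Gzmg at 0 in Gzma-high cells, so a lower median was built in. The genes at 1 CPM or more also differed, so the 3.33 and the 0.56 cover different genes. Against cells with 1 to 4 Gzma UMIs the median was 1.29. Gzmb, a protease that triggers death of target cells, stood at 1593 CPM in Gzma-high and 920 CPM in Gzma-0 cells, and was found in 854 against 751 cells. Gzmk, a tryptase like granzyme A whose gene lies 71 kb from Gzma, had 234 UMIs in 155 cells against 13 UMIs in 10 cells, or 40.1 against 2.22 CPM. Gzmk UMIs were spread over many Gzma-high cells and were rare among Gzma-0 cells.

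Of the granzymes of the cluster around Gzmb, Gzmd to Gzmg came from few cells. Gzmc had 980 UMIs against 182 (168 against 31.0 CPM), in 157 and 56 cells. Gzmd had 330 UMIs in 27 Gzma-high cells and 28 UMIs in 4 Gzma-0 cells, and 90.3% of the former lay in 10 cells. Gzme had 125 UMIs in 24 cells against 7 UMIs in 1 cell. Gzmf and Gzmg had 88 and 129 UMIs in 7 and 9 Gzma-high cells and 0 in Gzma-0 cells, which made them at least 29.5-fold and at least 43.2-fold higher against a floor of 3 counts for the group. In all, 167 Gzma-high and 59 Gzma-0 cells had a UMI of any of Gzmc to Gzmg, or 17.0% of the former.

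Gzma lies on the minus strand at chr13:113093825-113100981 (GRCm38, GENCODE vM21, a protein-coding gene), and Gzmc and Gzmd lie on the minus strand at chr14:56231441-56234656 and chr14:56129556-56132608, 99 kb apart. The 250 bases before the RefSeq start of these 3 genes (GRCm38.p6, minus strand) are printed because Gzma defined the cells and Gzmc and Gzmd were the granzymes among the 12 highest genes. The windows are chr13:113100982-113101231, chr14:56234658-56234907 and chr14:56132594-56132843. Capitals mark TGTGGT, a core recognised by RUNX factors, or its reverse complement ACCACA.
Gzma: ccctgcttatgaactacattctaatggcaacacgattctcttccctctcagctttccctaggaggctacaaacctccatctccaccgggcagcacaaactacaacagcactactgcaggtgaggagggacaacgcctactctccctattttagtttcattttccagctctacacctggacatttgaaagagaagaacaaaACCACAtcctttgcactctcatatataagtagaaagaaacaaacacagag
Gzmc: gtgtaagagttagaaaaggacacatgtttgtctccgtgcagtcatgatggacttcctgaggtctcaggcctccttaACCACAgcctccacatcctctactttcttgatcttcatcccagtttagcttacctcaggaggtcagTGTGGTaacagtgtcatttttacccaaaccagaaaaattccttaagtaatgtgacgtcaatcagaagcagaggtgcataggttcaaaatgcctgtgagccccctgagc
Gzmd: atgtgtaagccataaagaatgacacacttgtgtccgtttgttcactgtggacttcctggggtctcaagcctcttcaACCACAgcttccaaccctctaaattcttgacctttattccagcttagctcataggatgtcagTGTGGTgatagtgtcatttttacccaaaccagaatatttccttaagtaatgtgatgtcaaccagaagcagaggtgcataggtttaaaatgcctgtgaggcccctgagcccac
The Gzma window held 1 match, starting 50 bases before the start, and the Gzmc window 2, at 174 and 108 bases. The Gzmd window also held 2, at 174 and 112 bases. The window of Fcer1g, also among the 12 highest genes, held 0 matches and is not printed. On either strand, TGTGGT was found in 7 of the 10 highest genes that had an entry in the RefSeq table, in 0 of 6 lowest genes with an entry and in 14.2% of 27025 windows of this length. Gzmc and Gzmd, whose windows resemble each other, count separately among the 7. The T-box core TCACAC was found in 1 of 10 and 2 of 6 (12.2% of all windows), the AP-1 motif TGANTCA in 1 and 0 (6.87%), and the STAT motif TTCNNNGAA in 0 and 1 (7.18%). These counts describe letters in the windows, not binding.

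Other granule and killing proteins were higher for 6 of 15 tested genes and lower for 0. Prf1, which encodes perforin, was at 50.5 CPM against 15.2, with a UMI in 208 against 83 cells. It reached 20 CPM through the Gzma-high cells alone. Serpinb6b and Serpinb9, inhibitors that protect the cell from its own proteases, were at 160 against 76.2 CPM and 49.7 against 25.4 CPM. Fasl, the ligand of the death receptor FAS, was at 107 against 58.6 CPM. Cst7, an inhibitor of granule cathepsins, was at 174 against 98.5 CPM, and the lysosomal protease Ctsd at 440 against 287 CPM. Nkg7, a granule membrane protein, did not reach 1.5-fold, at 1504 against 1035 CPM.

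Among 13 effector and memory transcription factors, 2 were higher and 0 lower. Id2, an inhibitor of E proteins that favours effector cells, was at 1238 against 601 CPM and was found in 958 against 814 cells. Bhlhe40 was at 117 against 68.9 CPM. The effector regulators Eomes (135 against 109 CPM), Tbx21 (15.1 against 20.5 CPM) and Runx3 (265 against 290 CPM) stayed within 1.5-fold. The long noncoding gene Gm36723, whose start lies 207 kb from Id2 on the same chromosome (chr12:25303940-25471979, plus strand), had 740 UMIs against 76, with 127 CPM (exact Poisson 95% interval 118 to 136) in Gzma-high cells. It differed from Gzmd in its spread: 363 Gzma-high and 55 Gzma-0 cells had a UMI of Gm36723, and the 10 highest Gzma-high cells held 9.19% of its UMIs. Gm36723 reached 20 CPM through the Gzma-high cells alone.

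Genes of the naive and stem-like programme were lower. Of 15 tested genes of this list, 10 were called lower and 0 higher, and the median over the 19 at 1 CPM or more was -1.07. Tcf7 was at 53.1 CPM (47.3 to 59.3) against 198 (186 to 209), with a UMI in 196 against 596 cells. Ccr7 was at 16.6 against 59.5 CPM, in 79 against 265 cells. Klf2, which drives S1pr1, was at 80.6 against 239 CPM, and S1pr1, the receptor for exit from lymph nodes, at 41.3 against 87.4 CPM. Il7r, the IL-7 receptor chain of long-lived T cells, was at 51.0 against 118 CPM. Id3 was at 22.9 against 48.9 CPM and Bach2 at 28.8 against 46.2 CPM. Dapl1 had 16 UMIs in 8 Gzma-high cells and 213 UMIs in 74 Gzma-0 cells. Ccr7 and Dapl1 reached 20 CPM through the Gzma-0 cells alone.

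Receptors shared with NK cells were higher for 4 of 7 tested genes and lower for 0. Of these, Klrb1c and Fcer1g reached 20 CPM through the Gzma-high cells alone, so that filter set their direction. Klrb1c, the NK1.1 receptor, was at 62.7 against 10.6 CPM and was found in 212 against 41 cells. Fcer1g, a signalling adaptor, was at 55.0 against 9.03 CPM in 93 against 27 cells, with 42.7% of its UMIs in 10 cells. Klrk1, the activating receptor NKG2D, was at 145 against 59.0 CPM, and Cd160 at 197 against 98.0 CPM. The defining NK genes Ncr1, Klra8, Klra4 and Klrb1b had 0 UMIs in both groups, Klra9 had 2 against 1 and Tyrobp 20 against 5. The 8 NK cell markers summed to 121 against 20.6 CPM, of which Klrb1c and Fcer1g made up most. With cells that had a Klrb1c, Fcer1g or Tyrobp UMI left out, 145 genes were higher and 214 lower.

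Homing receptors differed in both directions. Of the 4 genes tested in the chemokine receptor list, which does not hold the lymph node receptor gene Ccr7 (lower, above), 3 were higher, among them Ccr2 at 637 against 275 CPM and Cxcr6 at 441 against 266 CPM, receptors that draw cells to inflamed tissue. The chemokine genes Xcl1 and Ccl4 were at 25.3 against 11.4 CPM and 20.7 against 10.9 CPM, and both reached 20 CPM through the Gzma-high cells alone. Itga1, the collagen-binding integrin chain CD49a, was at 55.6 against 9.37 CPM in 208 against 29 cells, and Itgb1, its partner chain, at 273 against 172 CPM. Itga4, an integrin chain for homing through VCAM-1, was lower, with 64 UMIs against 150. Itga1 reached 20 CPM through the Gzma-high cells alone, and Itga4 through the Gzma-0 cells alone. Cd7 was lower as well, at 116 against 225 CPM. Ly6c2 was at 857 against 562 CPM, but the transcript of its neighbour Ly6c1 is near identical, so the split between them is uncertain. In the list of memory surface and integrin genes, 3 of 17 were higher and 2 lower.

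Of 6 effector cytokine genes, 1 was higher and 1 lower. Spp1, which encodes osteopontin, was at 55.8 against 7.84 CPM in 102 against 15 cells, and 48.5% of its UMIs lay in 10 cells. It reached 20 CPM through the Gzma-high cells alone. Lta, lymphotoxin alpha, was at 46.9 against 90.7 CPM. Ifng was low in both groups, with 77 against 28 UMIs. Of 2 inhibitory receptor and exhaustion genes tested, Entpd1 (CD39) was higher, at 30.0 against 17.7 CPM. Entpd1 also reached 20 CPM through the Gzma-high cells alone. Havcr2 (TIM-3) was under the level tested, with 53 UMIs in 47 cells against 1 UMI in 1 cell, a ratio of 53.2 (exact interval 9.15 to 2142). Pdcd1 had 12 against 5 UMIs and Tigit 2 against 3.

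IL-2 receptor and STAT5 target genes were mostly within 1.5-fold: 1 of 17 was higher and 1 lower. Il2rb, the chain shared by the IL-2 and IL-15 receptors, was at 292 against 270 CPM and Il2ra at 96.7 against 116 CPM. The costimulatory receptor Tnfrsf9 (4-1BB) was higher, at 101 against 40.9 CPM, and the cytokine Osm lower, at 30.3 against 67.8 CPM. In the S100, annexin and galectin list 3 of 16 were higher and 0 lower: Anxa1 at 187 against 63.2 CPM, S100a4 at 1601 against 930 CPM and Lgals3 at 1187 against 735 CPM. Of the exonic bases of S100a4, 51.7% are shared with a second annotated gene on the same strand, as are 34.4% of those of Ctsd. None of the 17 glycolysis genes reached 1.5-fold in either direction.

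Interferon-stimulated genes were mixed, with 1 of 17 higher and 3 lower. Isg20 was at 78.4 against 38.2 CPM, while Ifi27l2a (224 against 351 CPM) and the GTPase Igtp (154 against 235 CPM) were lower, as was Iigp1, another interferon-induced GTPase, at 43.2 against 105 CPM. Of genes outside the lists and chosen after their values were seen, Ifitm1, an interferon-inducible membrane protein, was at 4078 against 1524 CPM and was found in 787 against 457 cells. The metallothioneins Mt1 (also chosen after its values were seen) and Mt2 were at 371 against 117 CPM and 111 against 29.3 CPM. Of the exonic bases of Mt2, 73.5% lie opposite an antisense gene, and whether the counting used strand is not given in the sources used here.

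The remaining named genes are described by role where it is known. Gpr141, an orphan receptor, was at 57.2 against 13.6 CPM, and Ltb4r1, the leukotriene B4 receptor, at 69.9 against 19.6 CPM. Rgs1, a brake on chemokine receptor signalling, was at 98.6 against 26.6 CPM, and Egr1, an immediate early transcription factor, at 112 against 32.7 CPM. Ighm was at 116 against 316 CPM, Actn1, an actin crosslinker, at 16.3 against 63.9 CPM, and Cmah at 20.9 against 78.7 CPM. Arl5c was at 28.9 against 75.8 CPM and the antisense gene Gm26740 at 35.6 against 118 CPM. Of these genes, Gpr141 and Ltb4r1 reached 20 CPM through the Gzma-high cells alone, and Actn1 through the Gzma-0 cells alone. Of the CD8 T cell markers, 1 of 8 was called: Cd8b1 was lower, at 295 against 455 CPM, while Cd8a was at 164 against 217 CPM and Cd3d at 1389 against 1233 CPM.

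**Figure D3:**
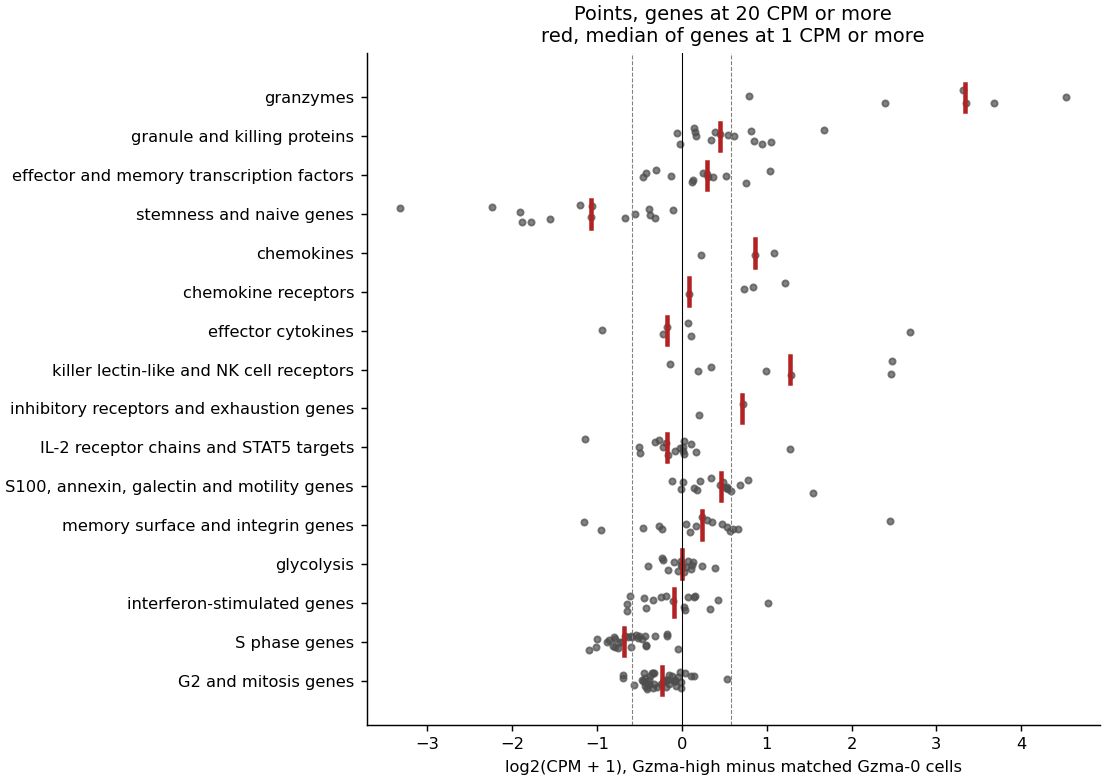
Difference in log2(CPM + 1), Gzma-high minus paired Gzma-0 cells, for each gene of 16 lists with at least 20 CPM in either group (grey points), with the median over list genes at 1 CPM or more (red bars) and dashed lines at 1.5-fold. The granzyme median lay at 3.33, the naive and stem-like median at -1.07 and the S phase median at -0.68.

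The direction of the cell cycle genes depended on the pairing. Cycling cells, those with a Mki67 or Top2a UMI, were 23.9% of Gzma-high cells (Clopper-Pearson 95% interval 21.3% to 26.7%) and 27.7% of paired Gzma-0 cells (24.9% to 30.6%). Among all 4560 Gzma-0 cells, of lower depth, they were 16.5% (15.5% to 17.6%). With every cell thinned to 2000 UMIs and no pairing, 15.5% of 973 Gzma-high and 10.7% of 4306 Gzma-0 cells were cycling, and 10 and 254 shallower cells were left out. Paired, 17 of 28 S phase genes were called lower and 0 higher, with a list median of -0.68, and 2 of 42 G2 and mitosis genes lower and 0 higher. Clspn was at 21.2 against 46.5 CPM, Rrm2 at 40.4 against 82.7 CPM, Pcna at 71.6 against 121 CPM, Top2a at 192 against 310 CPM and Cbx5 at 25.5 against 41.9 CPM. Without pairing, 9 of those 17 S phase genes lay above 0 and the list median was -0.02. Among cells without a Mki67 or Top2a UMI, paired anew, 167 genes were higher and 267 lower.

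Levels were also compared by the number of Gzma UMIs within the Gzma-high cells, which were divided into 308 cells with 5 to 9, 246 with 10 to 19 and 429 with at least 20. All 12 highest genes were in rising order over these 3 classes, and 9 of the 12 lowest in falling order. These genes were chosen by the contrast on Gzma UMIs, so their order is a description. Of 249 other genes put in order the same way, 65 were in rising, 62 in falling and 122 in mixed order. These were list genes together with genes chosen after their values were seen, such as Ifitm1 and Mt1. Gzmb was at 1127, 1282 and 2014 CPM, and Prf1 at 36.8, 48.0 and 59.6 CPM. Tcf7 was at 92.2, 50.1 and 32.3 CPM and Ccr7 at 24.3, 17.6 and 11.7 CPM. Gzmd, at 4.99, 33.9 and 97.2 CPM, was at the level of Gzma-0 cells (4.77 CPM) in the lowest class. Klf2 (117, 64.2 and 68.5 CPM) and Il7r (67.9, 39.5 and 47.2 CPM) did not fall from the second class to the third. Cells with 1 to 4 Gzma UMIs, paired with Gzma-high cells by depth, lay between the Gzma-0 and Gzma-high cells for Tcf7 (143 CPM), Id2 (995 CPM) and Ccr2 (456 CPM). Depth stayed unequal in these 785 pairs, with medians of 4527 UMIs and, in their Gzma-high partners, 4987 UMIs. The paired Gzma-0 cells had 5470. Median depth rose with the class, at 4716, 5194 and 6190 UMIs per cell, and its part in these orders was not tested.

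**Figure D4:**
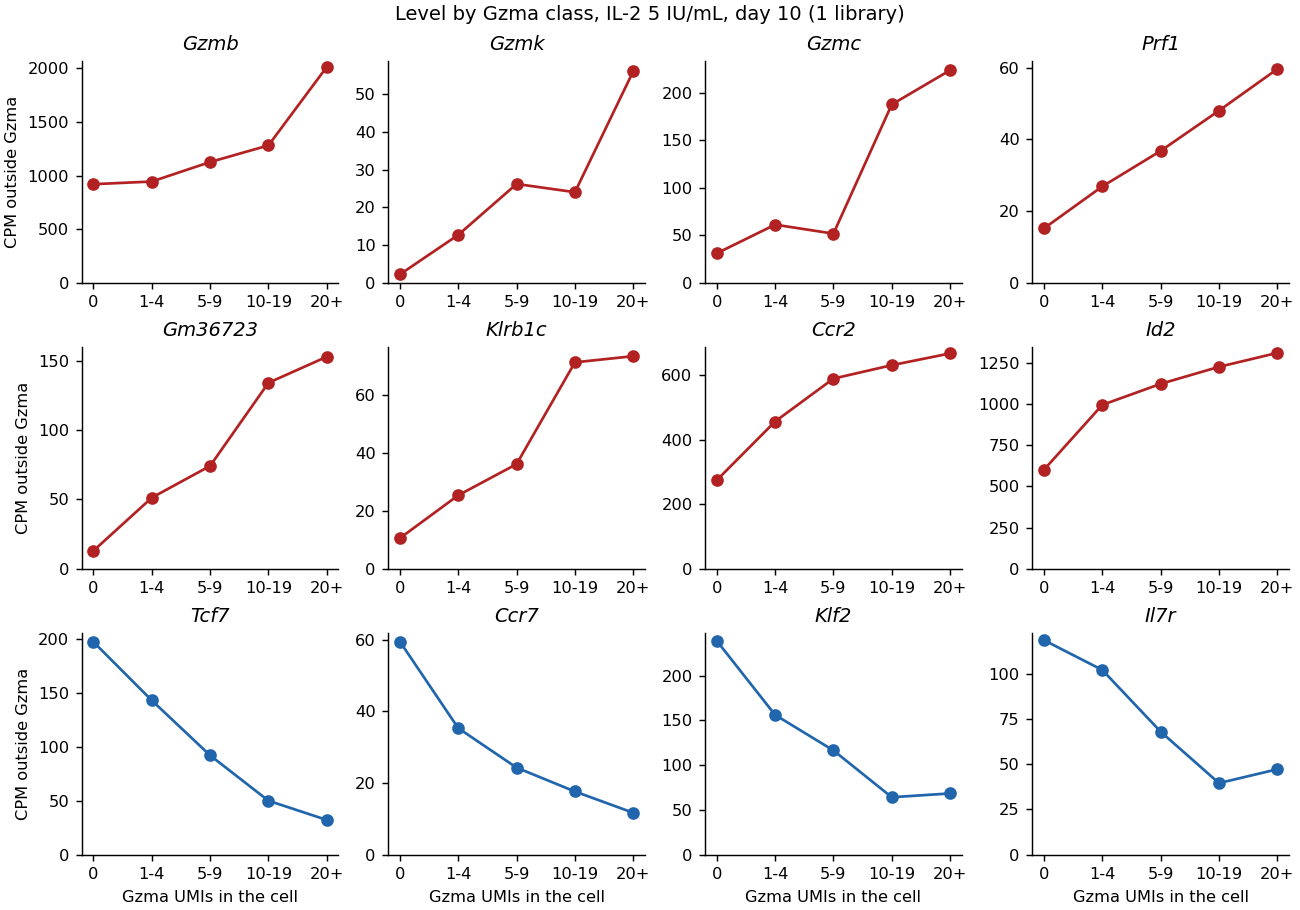
CPM outside Gzma (vertical axes from 0) of 12 genes in cells with 0, 1 to 4, 5 to 9, 10 to 19 and at least 20 Gzma UMIs, in the library with 5 IU/mL IL-2 on day 10. The class with 0 is the 983 paired Gzma-0 cells, and the class with 1 to 4 is 785 of 839 cells, paired by depth. Prf1 climbs from 15.2 to 59.6 CPM and Tcf7 declines from 198 to 32.3 CPM over the classes.

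Gzma-high cells were not uniform. The 167 cells with a Gzmc to Gzmg UMI were paired by depth with 167 of the 816 without. They had 2361 against 1570 CPM of Gzmb, 183 against 10.1 CPM of Fcer1g and 148 against 40.3 CPM of Spp1. Their Gzma level, 7829 against 4263 CPM of all UMIs, is a description, since Gzma chose the cells. Tcf7 was at 21.0 against 66.3 CPM in them. Gzmk ran the other way, at 22.7 against 46.2 CPM. Id2 (1237 against 1129 CPM) and Ccr2 (654 against 563 CPM) stayed within 1.5-fold. With the cells that had a Gzmc to Gzmg UMI left out of the Gzma-high group, a setting chosen after the data were seen, 125 genes were higher and 200 lower over 816 pairs. With all 983 pairs, 115 and 167 of these had been called too.

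The same contrast was tested in libraries that had played no part in choosing these cells. Libraries with at least 50 pairs were used: 65 pairs without cytokine on day 3, 51 and 100 pairs at 5 and 50 IU/mL IL-2 on day 5, and 815 and 590 pairs at 50 IU/mL IL-2 and IL-2v on day 10. At 50 IU/mL IL-2 on day 10 the supply of Gzma-0 cells allowed pairs for 815 of 3118 Gzma-high cells, and those pairs had medians of 4165 and 3750 UMIs. Of the 12 highest genes, 4 were above 0 in all 5 libraries (5.3% of the 5680 genes were) and 11 in both day 10 libraries (21.4%). Of the 12 lowest, 8 were below 0 in all 5 (5.28%) and 11 in both day 10 libraries (44.1%). In 50 IU/mL IL-2v on day 10, all 12 highest were above 0 (38.2% of the genes tested there) and all 12 lowest below 0 (61.8%). Counts were small on days 3 and 5: Gzmd, for example, had 0 UMIs in both groups in 2 of those 3 libraries. On day 3, Gpr141 had 1 UMI in each group, Egr1 1 against 0 and Gzmc 3 against 0. All were among the 4 highest genes above 0 in all 5 libraries, so that count rests partly on few UMIs.

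**Figure D5:**
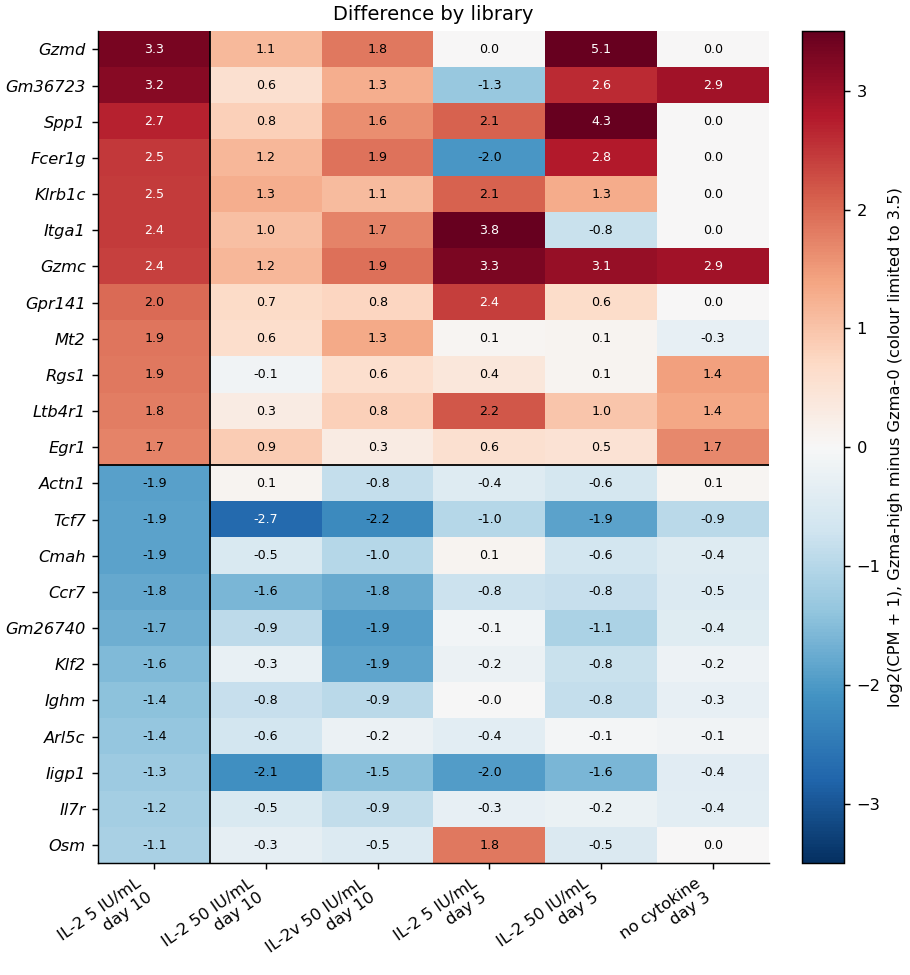
Difference in log2(CPM + 1), Gzma-high minus paired Gzma-0 cells, for the 12 highest genes and 11 of the 12 lowest in the low-dose IL-2 library (left column) and 5 other libraries; colours stop at 3.5 on either side. Tcf7 is below 0 in every column, from -0.94 on day 3 to -2.71 at 50 IU/mL IL-2 on day 10, and Gzmc above 0 in every column.

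With edgeR's quasi-likelihood test over these 5 libraries, with the library as a block, 69 of 4821 genes passed in the higher direction (1.43%) and 60 in the lower direction (1.24%) at a Benjamini-Hochberg adjusted p under 0.05. Of the genes called in the low-dose library, 33 of 110 higher and 18 of 171 lower genes that were tested passed in the same direction, and 1 (Klrk1) and 0 passed in the opposite one. Of the 12 highest genes 8 were tested and 6 passed, and of the 12 lowest 11 were tested and 4 passed. Differences below are log2 values ± SE from this edgeR quasi-likelihood fit (n = 5 libraries), with Benjamini-Hochberg adjusted p. Each library was another condition, so SE and p measure the spread over conditions, not over replicate cultures. By edgeR, Prf1 was higher by 1.61 ± 0.15 (adjusted p = 0.000142), Gzmc by 1.84 ± 0.19 (adjusted p = 0.000203) and Fcer1g by 1.61 ± 0.17 (adjusted p = 0.000204). Gpr141 (0.79 ± 0.11, adjusted p = 0.00132), Gm36723 (1.01 ± 0.16, adjusted p = 0.00348) and Ltb4r1 (0.70 ± 0.14, adjusted p = 0.0120) also passed edgeR's test. By edgeR, Iigp1 was lower at -1.60 ± 0.20 (adjusted p = 0.000394), Tcf7 at -1.49 ± 0.24 (adjusted p = 0.00275), Ccr7 at -0.96 ± 0.19 (adjusted p = 0.0120) and Ighm at -0.56 ± 0.11 (adjusted p = 0.0148). Il7r missed the threshold, at -0.40 ± 0.11 (edgeR adjusted p = 0.0695). Gzmd was higher by 1.58 ± 0.18 (edgeR adjusted p = 0.000394), but DESeq2 gave it 1.76 with an adjusted p of 0.999, and Gm36723 1.14 with an adjusted p of 0.0685. DESeq2 called 37 genes higher and 22 lower. On day 10, leaving out 50 IU/mL IL-2 ended the edgeR calls of Gpr141 (0.85, adjusted p = 0.0840), Ccr7 (-0.90, adjusted p = 0.0697) and Ighm (-0.52, adjusted p = 0.157), at differences close to those with all 5 libraries. Leaving out 50 IU/mL IL-2v ended the edgeR calls of Ltb4r1 (0.61, adjusted p = 0.157) and Ighm (-0.46, adjusted p = 0.134). Prf1, Gzmd, Gm36723 and Fcer1g were under the count filter in both of these fits, while Gzmc, Iigp1 and Tcf7 passed in both. With all 5 libraries, Prf1, Gzmd, Gm36723 and Fcer1g needed the Gzma-high cells of day 5 to meet that filter, which favoured their direction. In the same fit Tcf7 needed the Gzma-0 cells at 50 IU/mL IL-2 on day 5, which favoured its lower direction.

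By list, edgeR's test over the 5 libraries passed all 6 granzymes tested, Gzmb to Gzmg, in the higher direction. Outside day 10, Gzmd, Gzme, Gzmf and Gzmg had 13, 10, 17 and 13 UMIs against 0 at 50 IU/mL IL-2 on day 5. Elsewhere they had 0 in both groups, apart from 0 against 1 for Gzmf on day 3. They needed those Gzma-high cells of day 5 to meet the count filter, which favoured their direction. It passed 5 of 15 granule genes (Prf1, Ctsd, Serpinb6b, Serpinb9 and Nkg7), 3 of 12 effector transcription factors (Id2, Bhlhe40 and Nfil3) and 7 of 18 S100, annexin and galectin genes, all higher. In the lower direction it passed 5 of 15 naive and stem-like genes (Tcf7, Ccr7, Id3, Dapl1 and Satb1) and 5 of 14 interferon-stimulated genes (among them Igtp, Ifi27l2a, Ifi47 and Gbp2). Tcf7, Id3 and Dapl1 needed the Gzma-0 cells at 50 IU/mL IL-2 on day 5 to meet the count filter, which favoured their lower direction. None of the 17 glycolysis genes and none of the 4 chemokine receptor genes passed in either direction. Of the 6 NK cell receptor genes tested, edgeR passed 1 higher (Fcer1g) and 1 lower (Klrk1), with a median of -0.30. In the low-dose library the median of that list was 1.27, but over 14 genes at 1 CPM or more, so these medians cover different genes. Over the list genes at 1 CPM or more in each other library, the median was 0.76 on day 3 without cytokine. It was 0.49 and 1.29 at 5 and 50 IU/mL IL-2 on day 5, and -0.23 and -0.54 at 50 IU/mL IL-2 and IL-2v on day 10. Gzmk and Klrb1c were under the count filter, but lay above 0 in 5 and 4 of the 5 libraries. Klrb1c had 1 against 0 and 3 against 1 UMIs at 5 and 50 IU/mL IL-2 on day 5, and 0 in both groups on day 3. The 2 day 10 libraries carried most of the cells: without 50 IU/mL IL-2 the test passed 13 genes higher and 8 lower, and without 50 IU/mL IL-2v 14 and 15. Cycling cells were 20.3% of Gzma-high and 35.9% of paired Gzma-0 cells at 50 IU/mL IL-2v on day 10, and 9.82% and 12.9% at 50 IU/mL IL-2. On day 5 they were 47.0% and 61.0% at 50 IU/mL IL-2 but 49.0% and 43.1% at 5 IU/mL, and on day 3 without cytokine they were 67.7% of both. Among cells without a Mki67 or Top2a UMI, edgeR passed 66 genes higher and 64 lower of 2102 tested, of which 36 and 34 had passed with all pairs.

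Over whole libraries, the genes that marked Gzma-high cells were also unevenly distributed across the cytokines on day 10. Gm36723 was at 44.3 CPM with 5 IU/mL IL-2, 137 CPM with 50 IU/mL IL-2 and 113 CPM with 50 IU/mL IL-2v, against 1.04 CPM with 5 IU/mL IL-2v and 0.129 and 0.439 CPM with 5 and 50 IU/mL IL-15. Gzmd stood at 14.3 CPM with 5 IU/mL IL-2 and 3621 CPM with 50 IU/mL IL-2. Gzmk was at 11.6 and 10.1 CPM in those 2 libraries. With 5 and 50 IU/mL IL-2v, Gzmd was at 0.123 and 425 CPM and Gzmk at 0.0613 and 1.14 CPM. With 5 and 50 IU/mL IL-15, Gzmd was at 0 CPM in both, while Gzmk was at 5.96 and 0.408 CPM. In such whole-library sums, more cells with a gene and more RNA per cell cannot be told apart.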

How the data were processed

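Single-cell RNA was measured in 21 libraries. The authors deposited raw UMI counts per gene symbol (17516) and barcode. Per the submitters' processing notes, Cell Ranger, Seurat 3.0.2 and 4.0.1 and the build mm10 were used, and doublet removal is not given in the sources used here. Per the labels' protocols cells were cultured, although one protocol describes sorting from tumours. Titles were followed where 6 treatment labels name another cytokine.

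The members and lists were chosen with earlier results of these data known. Cells under 1000 UMIs or 500 genes, or over 10% mitochondrial UMIs, were removed (2 cells), and no doublet caller was run. Gzma-high cells were paired 1 to 1 with Gzma-0 cells within 10% of total UMIs, greedily. UMIs were summed, scaled to CPM outside Gzma and compared as log2(CPM + 1), which understates the change of low genes. Genes named were the 12 highest and 12 lowest at 50 CPM or more, and list members, of which some are not reported here. The low-dose library has no replicate and no test. Over the other libraries, edgeR 4.0.16 (TMM, filterByExpr, glmQLFTest, library as block) was the test and DESeq2 1.42.0 an alternative. The plan named the other day 10 libraries and, with fewer than 3 of them usable, all other libraries with at least 50 pairs. The edgeR script was tested on simulated data. Positions are GENCODE vM21 and promoter windows RefSeq, both GRCm38. R 4.3.3, Python 3.11.15, numpy 2.4.6, pandas 2.3.3, scipy 1.17.1 and matplotlib 3.10.9 were used. Alternatives covered cell filters, pairing, the Gzma threshold, scaling, the pseudocount and expression filters.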

Additional observations from a re-analysis of the deposited data

Results flagged for a closer look

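Klrk1, the gene of the activating receptor NKG2D, differed in opposite directions in the low-dose IL-2 library and the others. In the low-dose IL-2 library it was higher in Gzma-high cells by 1.29 on the log2 scale (145 against 59.0 CPM, 367 against 169 cells), and its level was higher in each of the 5 Gzma classes than in the one before, from 59.0 to 159 CPM. In each of the 5 other libraries it was lower in Gzma-high cells, by log2 differences of -0.35, -0.03, -0.07, -0.38 and -0.92 (day 3 without cytokine, day 5 with 5 and 50 IU/mL IL-2, day 10 with 50 IU/mL IL-2 and IL-2v). Over those 5 libraries edgeR's quasi-likelihood test gave -0.52 ± 0.12 (SE), with a Benjamini-Hochberg adjusted p of 0.0349. The edgeR call was lost without the library of 50 IU/mL IL-2 (-0.51, adjusted p = 0.324) or of 50 IU/mL IL-2v (-0.26, adjusted p = 0.772) on day 10, and without pairing of cells by depth (-0.33, adjusted p = 0.321). The edgeR call was kept without each of the other 3 libraries in turn (adjusted p from 0.0110 to 0.0331) and in cells with neither Mki67 nor Top2a UMIs (-0.63, adjusted p = 0.0152). DESeq2 gave -0.41 with an adjusted p of 0.548. On day 5 the counts behind the direction were 39 against 40 UMIs at 5 IU/mL and 20 against 21 UMIs at 50 IU/mL IL-2. The difference between the low-dose library and the others was not tested, since each group is 1 library.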

How the results depend on the processing

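The counts of 150 higher and 238 lower genes changed by more than 1.5 times as follows. Against cells with 1 to 4 Gzma UMIs they were 59 and 71, with a pseudocount of 10 CPM 98 and 117, without an expression filter 717 and 1158, and at 50 CPM 80 and 92. Thinning without pairing gave 241 higher, TMM gave 144 lower, and totals that left out mitochondrial and ribosomal protein RNA gave 377 lower. The difference in cycling share, -3.76 percentage points, turned to 0.377 without cells over 2 times the median UMIs, 7.37 without pairing, 0.255 against cells with 1 to 4 Gzma UMIs and 4.79 when thinned. Single genes that reversed were Rrm2 (0.072 without pairing, 0.20 against 1 to 4 UMIs, 0.62 thinned), Top2a (0.22, 0.075 and 0.53), Clspn (0.10 thinned) and Cbx5 (0.069 thinned). The cause was not tested. Gzmd (-2.81), Gzmc (-5.09) and Gzme (-1.32) reversed, by construction, without Gzma-high cells that had a Gzmc to Gzmg UMI. Of the list medians, G2 and mitosis changed sign in 4 of 20 settings, S phase in 1, effector cytokines in 5, glycolysis in 4, and chemokine receptors and interferon-stimulated genes in 2 each; the other 10 lists kept their sign, with the granzyme median between 0.56 and 4.12. Some of the 20 settings, such as all barcodes and pairing within 2%, left the counts of called genes unchanged. Settings with Gzmc to Gzmg cells or with Klrb1c, Fcer1g or Tyrobp cells left out were chosen after seeing the data. The first of these gave the granzyme median of 0.56, lowered by construction.

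Over the other libraries, the 69 higher and 60 lower genes became 37 and 22 with DESeq2, 185 and 139 without a filter, 153 and 152 without pairing cells, and 66 and 64 once cycling cells were removed (36 and 34 of them shared). Leaving out 1 library at a time gave 13 to 148 higher and 8 to 129 lower genes. With no replicate block for the library, edgeR called 0 and 0 (14 at an unadjusted p under 0.05). No paired analysis by replicate number was possible because each group is 1 library; the block is the library itself. The alternative of all other libraries equals the test as run. The number of Gzma-high cells, 51 to 100 on days 3 and 5, limits what those libraries can show.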
